A study of Mus musculus with 6 samples.

Results

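The nuclear genes of oxidative phosphorylation were examined in B cells from the spleens of the congenic Sle2 strain and of its B6 control. The members were all probes whose gene symbol begins with Nduf, Uqcr, Atp5 or a Cox prefix of the subunit families, together with the Sdh genes, Cyc1 and Atpif1. This rule uses names and no measured value. It gave 138 of the 45281 probes on the array, which stand for 89 genes. Of these, 78 encode subunits of complexes I to V and 8 encode complex I assembly factors. The other members are Cox7a2l, Atpif1 and a transcribed pseudogene, Ndufs5-ps. A probe was kept if its detection p-value was under 0.05 on at least 3 of the 6 arrays, and where a gene had several such probes, the one with the highest mean stood for it (its representative probe). By this filter 105 member probes were kept and 77 member genes were tested, among 9297 tested genes in all.

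The groups were 3 Sle2 mice and 3 B6 mice, with 1 Illumina BeadChip per mouse. B6.Sle2 mice are congenic: they carry the lupus susceptibility interval Sle2 of chromosome 4 from the NZM2410 strain, and their background is C57Bl/6. B6 mice are the control strain without that interval. No agent was given in either group according to the labels, which give neither age nor sex. Values are background-corrected, quantile-normalized intensities on the log2 scale, and a difference is Sle2 minus B6 on that scale.

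Oxidative phosphorylation takes place in the inner mitochondrial membrane. Complexes I and II pass electrons from NADH and succinate to ubiquinone, complex III passes them to cytochrome c, and complex IV passes them to oxygen. Complexes I, III and IV pump protons, and complex V, the ATP synthase, makes ATP as the protons return. Activated B cells raise both respiration and glycolysis, and most subunits are encoded in the nucleus while a few come from mitochondrial DNA.

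The arrays gave 17417 to 17923 detected probes each. All 10 of the 10 probed B cell markers were detected, and their summed level (normalized intensity, linear scale) ran from 35000 to 36800 in Sle2 and from 35700 to 40100 in B6. Of the markers of other cells, 9 of 10 T cell genes were detected (summed level 1740 to 2040 in Sle2 and 1740 to 1810 in B6; Cd8a was undetected). The monocyte and macrophage sum, with 9 of 9 detected, ran from 7360 to 11400 in Sle2 and from 8750 to 10800 in B6, and the plasma cell sum, with 6 of 8 detected, from 11900 to 13200 and from 10600 to 11400. The erythroid sum, with 10 of 12 detected, ran from 47100 to 61900 in Sle2 and from 35500 to 63900 in B6, and the neutrophil sum, with 7 of 8 detected, from 1670 to 1710 and from 739 to 2670. No marker gene in these lists was called by limma. Xist was high on Sle2 mouse 3 (10.93) and B6 mouse 2 (10.13), was 5.89 on B6 mouse 3, and was undetected on the other arrays, while the Y-linked Eif2s3y and Kdm5d were 8.67 and 6.34 on B6 mouse 3. Eif2s3y was also detected on Sle2 mouse 3, at a lower level (5.36), while Kdm5d was undetected there. B6 mouse 3 was thus the 1 array on which Xist was detected beside high Y-linked signal. Sle2 mouse 3 had high Xist beside low Eif2s3y. Whether either array holds RNA of more than 1 mouse was not tested. In bulk RNA, fewer cells of a type and less RNA per cell cannot be told apart.

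Transcripts of the respiratory chain differed little between the strains. Of 77 tested members, 1 was called higher in Sle2 at a limma adjusted p under 0.05 and 0 were called lower. The called gene was Atpif1, the inhibitor of ATP synthase. None of the 67 tested subunits was called. Over all tested genes the called share was 1.04% (0.656% higher and 0.387% lower). At an unadjusted p under 0.05 there were 5 higher and 8 lower members, which is 16.9% of them, against 16.9% of all genes (10.5% higher and 6.45% lower). For the 67 subunits alone that count was 3 higher and 8 lower, or 16.4%.

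Differences lay on both sides of 0, with 39 members above it (50.6%, against 54.2% of all tested genes) and 38 below. Their median was 0.01, where all tested genes had a median of 0.02, and their range was -0.53 to 0.58. The strains did not overlap for 25 members (16 higher, 9 lower), or 32.5%, against 24.2% of all genes (14.7% higher, 9.45% lower). The 95% interval of the difference lay within 0.5 log2 units of 0, a 1.41-fold change, for 60 of the 77 members, and for 0 of them did it reach 1 log2 unit. The median distance from an estimate to the end of its interval was 0.24. These intervals rest on 3 mice per strain.

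**Figure D1:**
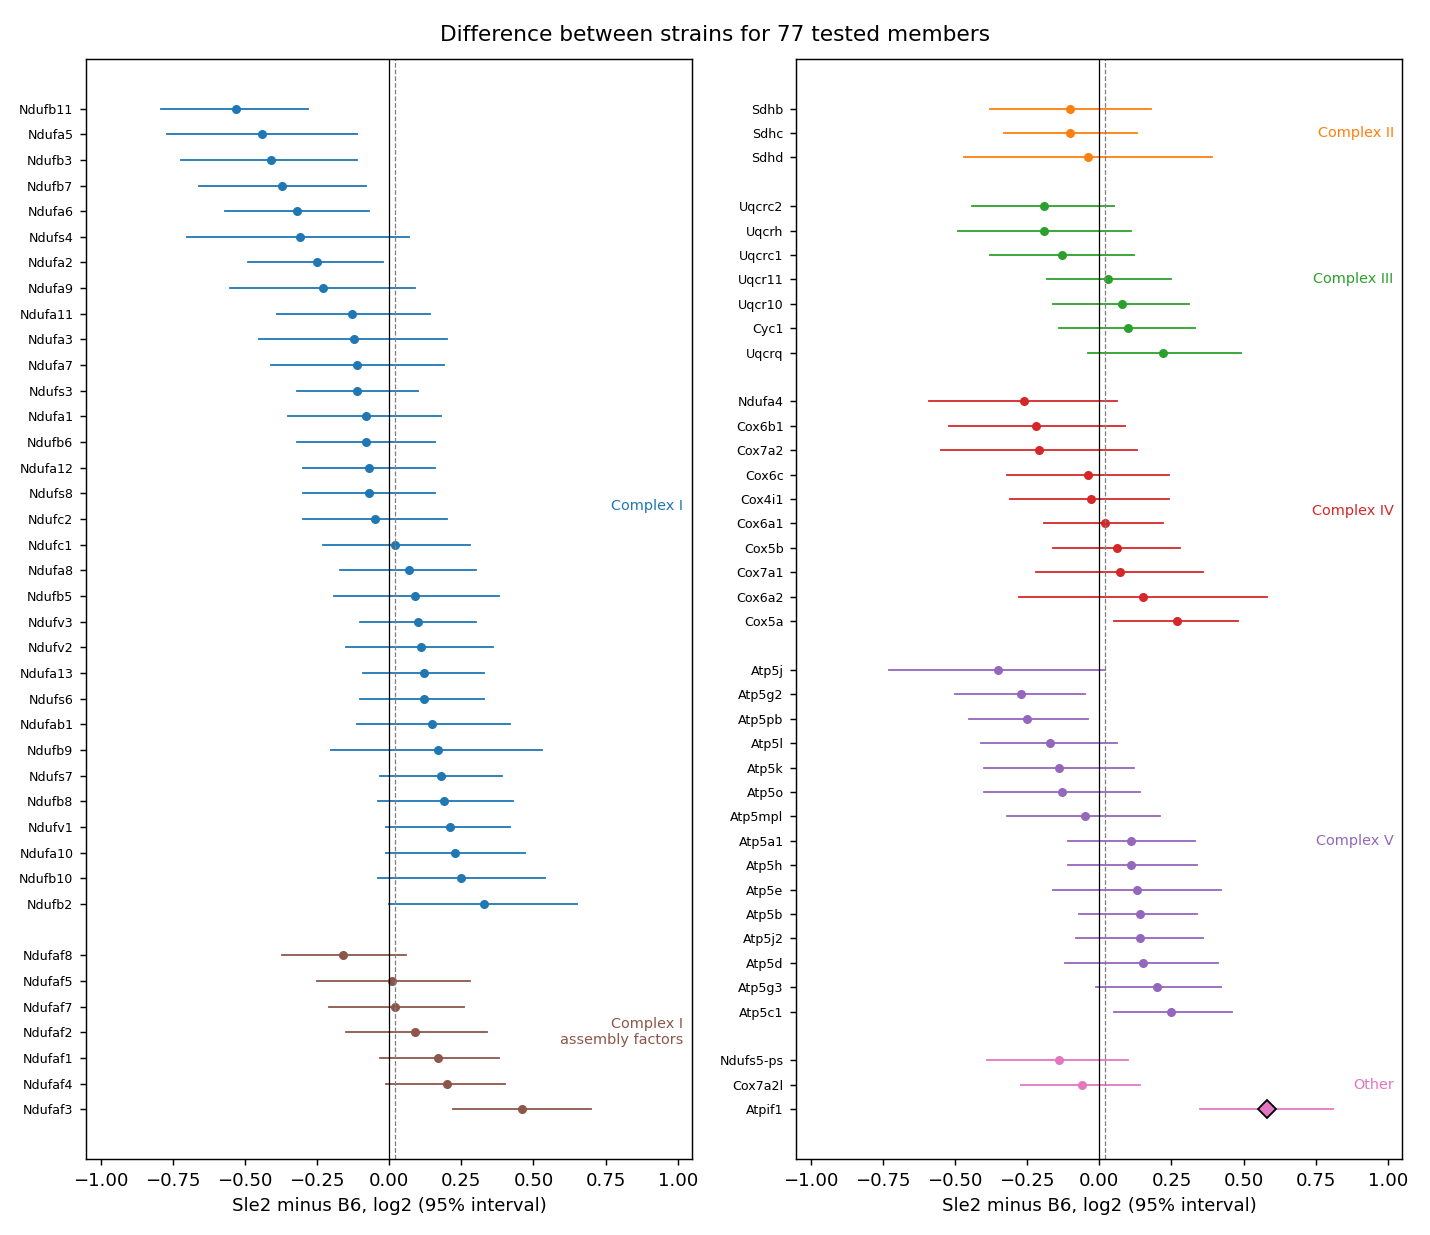
Difference between strains for each of the 77 tested members, grouped by complex. The x axis is Sle2 minus B6 on the log2 scale, points are limma estimates with 95% intervals, the diamond marks the called gene Atpif1 (0.58), and the dashed line is the median of all tested genes (0.02).

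The promoters of Atpif1 and Ndufaf4 are shown because these were the members with a called probe. Each run gives 250 bases before and 50 bases after the gene start, from RefSeq on mouse assembly GRCm38.p6, on the gene's strand. Atpif1 lies at chr4:132535365-132535664 on the minus strand and Ndufaf4 at chr4:24897833-24898132 on the plus strand. Capitals mark matches to the palindromic binding motif of NRF1, a factor known to control genes of the respiratory chain.
Atpif1: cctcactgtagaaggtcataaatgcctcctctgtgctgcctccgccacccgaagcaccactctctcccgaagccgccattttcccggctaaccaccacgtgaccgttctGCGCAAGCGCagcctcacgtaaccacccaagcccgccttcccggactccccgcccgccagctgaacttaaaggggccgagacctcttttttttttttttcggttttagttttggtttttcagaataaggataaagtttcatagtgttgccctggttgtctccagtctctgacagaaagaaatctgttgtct
Ndufaf4: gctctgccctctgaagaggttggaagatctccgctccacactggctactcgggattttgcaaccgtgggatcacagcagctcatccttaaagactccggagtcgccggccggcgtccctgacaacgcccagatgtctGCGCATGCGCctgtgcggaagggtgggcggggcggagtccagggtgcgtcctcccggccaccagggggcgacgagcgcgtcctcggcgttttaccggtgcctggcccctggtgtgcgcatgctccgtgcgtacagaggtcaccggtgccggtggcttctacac
The motif was searched on both strands as the letters in capitals, with any base allowed at the sixth position. It begins at position -141 from the start in Atpif1 and at -113 in Ndufaf4. A RefSeq promoter was matched for 73 of the 89 members, and 19 of them, or 26.0%, held this motif, against 11.9% of the 7588 promoters of tested genes and 5.19% of all 27025 promoters in the table. The YY1 motif AAGATGGC was held by 15.1% of member promoters and 5.79% of those of tested genes. The ETS motif CCGGAAG was held by 24.7% and 21.5%. The CCAAT box (CCAAT) was held by 43.8% and 43.5%, and the cyclic AMP response element TGACGTCA by 5.48% and 3.62%. Over all promoters in the table these shares were 3.19% for YY1, 9.93% for ETS, 41.1% for the CCAAT box and 2.03% for the cyclic AMP response element. A match is a description of the sequence only.

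Atpif1 encodes ATPase inhibitory factor 1, a small matrix protein that stops ATP synthase from running backwards and consuming ATP when the membrane potential falls. Its representative probe read 12.27, 12.18 and 12.19 in Sle2 mice 1, 2 and 3, and 11.71, 11.50 and 11.68 in B6 mice 1, 2 and 3. The 3 Sle2 values exceeded the 3 B6 values. Before normalization the intensities were 5310, 4720 and 5100 in Sle2 and 3130, 2620 and 3300 in B6, which gave the same separation. All Sle2 arrays were brighter before normalization, with median intensities of 53.6 to 56.7 against 50.4 to 52.1. Cyc1, which overlapped after normalization, also separated in these raw values (1270 to 1450 against 1040 to 1190). The normalized means of Atpif1 were 12.21 ± 0.05 (SD, n = 3) and 11.63 ± 0.11 (SD, n = 3). By this probe Atpif1 was 1.5-fold higher in Sle2, a difference of 0.58 (SE 0.0996, 95% interval 0.35 to 0.81, limma adjusted p = 0.0392).

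A second Atpif1 probe did not show this difference. It read 6.06, 6.57 and 6.17 in Sle2 and 6.03, 6.37 and 6.32 in B6, so the strains overlapped. Its difference was 0.03 (SE 0.153, 95% interval -0.32 to 0.38, limma adjusted p = 0.944). The mean of the 2 probes was 0.30 higher in Sle2 (limma adjusted p = 0.151). The call of the representative probe was also lost without Sle2 mouse 1, 2 or 3 (adjusted p = 0.165, 0.122 and 0.136), without B6 mouse 2 or 3 (adjusted p = 0.0991 and 0.103), when dim probes were left in (adjusted p = 0.0518) and when Xist entered the fit as a covariate (adjusted p = 0.0624). Over all alternatives the adjusted p ran from 0.000713 to 0.165 and the difference stayed between 0.30 and 0.71.

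Atpif1 lies on chromosome 4, the chromosome of the Sle2 interval. In the gene order of GRCm38.p6 its nearest tested neighbours were Sesn2, at -0.49 (limma adjusted p = 0.153), and Dnajc8, at -0.31 (adjusted p = 0.203). Neither passed the test, and both were estimated in the direction opposite to Atpif1. Med18, a subunit of the Mediator complex, was 2 tested genes away and was lower in Sle2 by a difference of -2.77 (limma adjusted p = 1.45e-05).

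**Figure D2:**
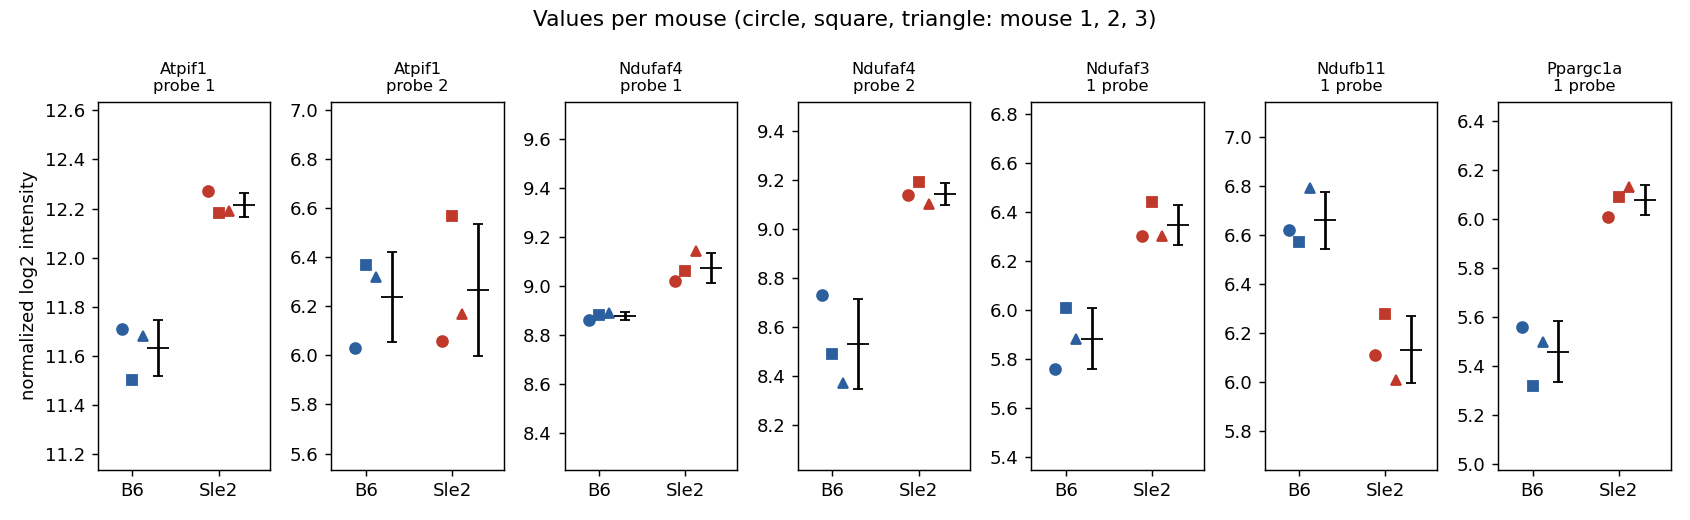
Normalized log2 intensity of each mouse for the kept probes of Atpif1, Ndufaf4, Ndufaf3, Ndufb11 and Ppargc1a, with B6 in blue, Sle2 in red and a shape for each mouse number. Black bars are the mean and SD of 3 mice, each panel spans 1.5 log2 units, and the strains overlap only for the second probe of Atpif1.

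Complex I is built with the help of assembly factors that are absent from the finished enzyme. Of 7 tested factors, 6 had a difference above 0, against 54.2% of all tested genes. The median of the 7 factors was 0.09. B6 mouse 1 was the lowest of the 6 arrays for 6 of the 7, against 1721 of the 9297 tested genes. None was called by its representative probe, and 1 passed an unadjusted p under 0.05 (14.3%, against 16.9% of all tested genes). The strains did not overlap for 4 of the 7, 3 higher and 1 lower, against 24.2% of all tested genes.

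Ndufaf3 and Ndufaf4 encode proteins that bind each other and act early in complex I assembly. Ndufaf3 read 6.30, 6.44 and 6.30 in Sle2 and 5.76, 6.01 and 5.88 in B6. The lowest Sle2 mouse lay above the highest B6 mouse. The difference was 0.46 (SE 0.104, 95% interval 0.22 to 0.70), which did not pass the test (limma adjusted p = 0.0873).

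Ndufaf4, on chromosome 4, was measured by 2 kept probes. The representative probe read 9.02, 9.06 and 9.14 in Sle2 and 8.86, 8.88 and 8.89 in B6, a difference of 0.20 (SE 0.0905, limma adjusted p = 0.307). The other probe read 9.14, 9.19 and 9.10 in Sle2 and 8.73, 8.49 and 8.37 in B6, a difference of 0.61 (SE 0.114, limma adjusted p = 0.0493). On both probes every Sle2 mouse lay above every B6 mouse, and only the second passed the threshold. With this probe, 2 of the 105 kept member probes were called, against 1.06% of all kept probes. The nearest called gene in the gene order, Tmem38b, was 93 tested genes away.

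Among the other factors, Ndufaf1 had a difference of 0.17 (limma adjusted p = 0.352) and Ndufaf8 one of -0.16 (adjusted p = 0.423), each with no overlap between strains. Ndufaf2, Ndufaf5 and Ndufaf7 lay between 0.01 and 0.09 and overlapped. Ndufaf6 had no kept probe.

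Complex I was the best covered complex, with 32 of 34 subunits tested. Its median difference was -0.06, with a range of -0.53 to 0.33. No subunit was called by limma, and 1 higher and 6 lower passed an unadjusted p under 0.05. Together these are 7 of 32, where the share over all genes was 16.9%. The strains did not overlap for 7 higher and 6 lower subunits, 40.6% of those tested, against 24.2% of all tested genes (14.7% higher, 9.45% lower).

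Ndufb11, an accessory subunit of the membrane arm encoded on the X chromosome, had the largest difference of any tested subunit as analysed. It read 6.11, 6.28 and 6.01 in Sle2 and 6.62, 6.57 and 6.79 in B6. All Sle2 mice lay below all B6 mice. The difference was -0.53 (SE 0.112, 95% interval -0.79 to -0.28), which did not pass the test (limma adjusted p = 0.0733). Its adjusted p lay between 0.0451 and 0.223 over the alternatives, and the lowest of these, with a trended prior, passed. The high Xist values of Sle2 mouse 3 and B6 mouse 2 fell on the lowest array of each strain for Ndufb11. Ndufa1, the other X-linked subunit tested, had a difference of -0.08 and overlapped.

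The lower end of complex I was made up of accessory subunits, which surround the catalytic core and stabilise it. Ndufa5, in the arm that faces the matrix, read 9.86, 10.09 and 9.78 in Sle2 and 10.07, 10.44 and 10.55 in B6. B6 mice 2 and 3 were the highest arrays, and B6 mouse 1 lay within the Sle2 range. Its difference was -0.44 (SE 0.145, limma adjusted p = 0.191), and -0.34 without B6 mouse 3.

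Ndufb3, a membrane arm subunit, read 9.46, 9.73 and 9.55 in Sle2 and 9.74, 10.07 and 10.17 in B6. B6 mouse 1 lay just above the highest Sle2 mouse. Its difference was -0.41 (SE 0.135, limma adjusted p = 0.187), and -0.32 without B6 mouse 3. Ndufb7 (-0.37), Ndufa6 (-0.32) and Ndufa2 (-0.25) were also lower in all Sle2 mice than in all B6 mice, with limma adjusted p of 0.202, 0.195 and 0.258. Ndufs4, a subunit whose loss causes Leigh-like disease in mice, had a difference of -0.31 (adjusted p = 0.381), but its 4 kept probes ran from -0.31 to 0.11.

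The upper end held Ndufb2 (0.33), Ndufb10 (0.25) and Ndufa10 (0.23), also accessory subunits. Ndufb2 read 5.71, 5.54 and 5.65 in Sle2 and 5.32, 5.03 and 5.57 in B6, with the highest B6 mouse above the lowest Sle2 mouse. Its limma adjusted p was 0.285. The other Ndufb10 probe was at -0.15, on the opposite side of 0.

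The catalytic core carries the flavin and iron-sulfur clusters along which electrons move. Its 5 tested members had a median of 0.11 and a range of -0.11 to 0.21. Of these, 2 were higher and 1 lower without overlap, against 24.2% of all tested genes (14.7% higher, 9.45% lower). Ndufv1, the subunit that binds NADH, read 11.54, 11.54 and 11.38 in Sle2 and 11.28, 11.26 and 11.29 in B6. The strains did not overlap, and the difference of 0.21 had a limma adjusted p of 0.302. Ndufs7, which carries the last cluster before ubiquinone, had a difference of 0.18 (adjusted p = 0.347), and Ndufs3 one of -0.11 (adjusted p = 0.572). The 27 accessory subunits had a median of -0.07. The difference between these 2 classes was not tested.

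Complex II, succinate dehydrogenase, also works in the tricarboxylic acid cycle, and 3 of its 4 subunits were tested. Sdha, the flavoprotein, had no kept probe. Sdhb, the iron-sulfur subunit on chromosome 4, read 9.14, 8.82 and 9.03 in Sle2 and 9.02, 9.0 and 9.27 in B6. The strains overlapped, and the difference was -0.10 (SE 0.123, 95% interval -0.38 to 0.18, limma adjusted p = 0.707). Its other probe was at -0.25 without overlap (adjusted p = 0.334). The membrane anchors Sdhc and Sdhd had differences of -0.10 and -0.04, with limma adjusted p of 0.63 and 0.933. B6 mouse 3 was the highest array for all 3 subunits, and without it Sdhd was at 0.15.

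Complex III had 7 of 8 subunits tested, a median of 0.03 and a range of -0.19 to 0.22. None separated the strains, against 24.2% of all tested genes, and none passed an unadjusted p under 0.05, against 16.9%. With 7 genes these counts say little. Cyc1, cytochrome c1, read 10.26, 10.42 and 10.14 in Sle2 and 10.17, 10.16 and 10.20 in B6. The B6 mice lay inside the Sle2 range. Its difference was 0.10 (SE 0.103, 95% interval -0.14 to 0.33, limma adjusted p = 0.656). Uqcrfs1, the Rieske iron-sulfur protein, had no kept probe.

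The accessory subunits of complex III fell on both sides. Uqcrq was at 0.22 (limma adjusted p = 0.362), Uqcr10 at 0.08 and Uqcr11 at 0.03. The core protein Uqcrc1 was at -0.13 and its partner Uqcrc2 at -0.19 (adjusted p = 0.391). Uqcrh, the hinge protein beside cytochrome c1, lies on chromosome 4 and was 2 tested genes away from Faah, the hydrolase named in the series title. Uqcrh read 12.42, 12.63 and 12.51 in Sle2 and 12.45, 12.84 and 12.84 in B6, a difference of -0.19 (SE 0.132, limma adjusted p = 0.492). B6 mouse 1 lay among the Sle2 mice, whereas the difference for Faah was 2.33 (limma adjusted p = 0.00718).

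Complex IV, cytochrome c oxidase, had 10 of 16 listed subunits tested. The median was -0.01, with a range of -0.26 to 0.27. Cox5a, a subunit on the matrix side, read 11.55, 11.50 and 11.60 in Sle2 and 11.37, 11.28 and 11.20 in B6. It was the 1 complex IV subunit whose strains did not overlap, with a difference of 0.27 (SE 0.0948, 95% interval 0.05 to 0.48, limma adjusted p = 0.209). At the other end, Ndufa4, first named as a complex I subunit and now placed in complex IV, read 11.48, 11.79 and 11.51 in Sle2 and 11.61, 11.92 and 12.05 in B6. The strains overlapped (difference -0.26, limma adjusted p = 0.378).

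The widely expressed isoforms showed small differences. Cox4i1, an isoform that binds ATP, was at -0.03, Cox6a1 at 0.02, Cox5b at 0.06, Cox7a2 at -0.21 and Cox6b1 at -0.22. Their limma adjusted p values ran from 0.439 to 0.946. The other Cox6a1 probe read 11.28, 11.27 and 11.30 in Sle2 and 11.45, 11.44 and 11.46 in B6, which is a difference of -0.17 without overlap (adjusted p = 0.365).

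Isoforms known from heart and skeletal muscle were detected in part in the RNA of these B cell preparations. Which cells gave these signals was not tested. Cox6a2 and Cox7a1 were detected on all 6 arrays, while Cox8b, and the lung isoform Cox4i2, had no kept probe. Cox6a2 read 7.49, 7.24 and 8.03 in Sle2 and 7.46, 7.30 and 7.55 in B6. Sle2 mouse 3 was the high array, and the difference of 0.15 (SE 0.188, limma adjusted p = 0.72) was -0.07 without it. Cox7a1 was at 0.07 (SE 0.126, adjusted p = 0.816) and was -0.05 without Sle2 mouse 2. The supercomplex factor Cox7a2l, which links complexes III and IV, was at -0.06 (adjusted p = 0.761). The pseudogene Ndufs5-ps was at -0.14 (adjusted p = 0.523).

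Complex V had 15 of 16 subunits tested and a median of 0.11, with a range of -0.35 to 0.25. No subunit was called. At an unadjusted p under 0.05 there were 1 higher and 2 lower, where the share over all genes was 16.9%. The strains did not overlap for 4 higher and 2 lower, 40.0% of those tested, against 24.2% of all genes.

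The catalytic head, where ATP is formed, had 5 tested subunits. All 5 had a difference above 0, between 0.11 and 0.25, where 54.2% of all tested genes lay above 0. Atp5c1, the gamma subunit that forms the rotating shaft, read 12.15, 12.19 and 12.15 in Sle2 and 11.91, 11.86 and 11.96 in B6. The strains did not overlap. Its difference was 0.25 (SE 0.0892, 95% interval 0.05 to 0.46, limma adjusted p = 0.207). Atp5b, the catalytic beta subunit, read 13.81, 13.76 and 13.82 against 13.71, 13.68 and 13.59. It also separated the strains, at 0.14 (limma adjusted p = 0.475). Atp5d, the delta subunit, was at 0.15 and overlapped (adjusted p = 0.548).

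The c-ring, the rotor driven by protons, is encoded by several genes for the same mature protein. Atp5g3 read 13.17, 13.28 and 13.28 in Sle2 and 13.11, 13.06 and 12.96 in B6, a difference of 0.20 (SE 0.0947, limma adjusted p = 0.318). Atp5g2 read 9.87, 9.90 and 9.71 in Sle2 and 10.04, 10.12 and 10.14 in B6, a difference of -0.27 (SE 0.0978, limma adjusted p = 0.211). Both genes separated the strains, in opposite directions, and neither passed the test.

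The peripheral stalk holds the head still against the rotor. Its 4 tested subunits had a median of -0.19, and 1 of them was above 0, against 54.2% of all tested genes. Atp5j, coupling factor 6, read 11.45, 11.79 and 11.41 in Sle2 and 11.57, 12.04 and 12.11 in B6, with B6 mouse 1 inside the Sle2 range. Its difference was -0.35 (SE 0.165, limma adjusted p = 0.314), and its other probe was at 0.03. Atp5pb, subunit b, read 10.61, 10.67 and 10.57 in Sle2 and 10.83, 10.87 and 10.89 in B6 without overlap. Its difference was -0.25 (SE 0.0896, limma adjusted p = 0.214), while its other probes were at -0.05 and 0.05. Atp5o, the protein that joins stalk and head, was at -0.13 and its other probe at 0.02.

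The 4 tested membrane subunits had a median of -0.10. Atp5l was at -0.17 (limma adjusted p = 0.421) and Atp5j2 at 0.14 (adjusted p = 0.481), the second without overlap. Atp5k was detected on 3 arrays, 1 of Sle2 and 2 of B6, and was at -0.14.

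Probes of the same gene did not always give the same sign. There were 23 members with more than 1 kept probe, and 18 of the 28 further probes had the sign of the representative probe. An opposite sign was found in 10 genes, which were Atp5j, Atp5o, Atp5pb, Cox5b, Cox6a1, Ndufa8, Ndufb10, Ndufs4, Ndufs6 and Ndufv3. The median span between the probes of a gene was 0.17. Subunit genes have many processed pseudogenes, and cross-hybridisation was not tested. Sequence differences between the strains under the probes, such as those of Atpif1 and Ndufaf4, were not tested either.

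On chromosome 4, 5 members were tested, with a median of -0.08 and a range of -0.19 to 0.58, and Atpif1 was the 1 called. Besides Atpif1, Ndufaf4, Sdhb and Uqcrh, these included Ndufb6, a complex I membrane arm subunit, at -0.08 (limma adjusted p = 0.733). The 6 members on chromosome 9, which included Cox5a and Ndufaf3, had a median of -0.09 and a range of -0.21 to 0.46.

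Spread between mice was uneven. The median SD over members was 0.0743 among Sle2 mice and 0.127 among B6 mice, and the B6 SD was the larger for 50 of 77 members (64.9%). Over all tested genes the median SDs were 0.109 and 0.138, and the B6 SD was the larger for 61.6%. B6 mouse 3 stood apart for the subunits counted together, though not in every part of the complexes. It was the highest of the 6 arrays for 38 of 77 members (49.4%) and for 36 of 67 subunits (53.7%), against 17.9% of all tested genes and 7 of 53 cytosolic ribosomal protein genes (13.2%). B6 mice 1 and 2 were each the highest array for 4 members.

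The deviation of B6 mouse 3 was given for each complex. As the median over genes of the deviation from the gene's mean, it was 0.16 in complex I, 0.23 in complex II, 0.06 in complex III, 0.04 in complex IV and 0.15 in complex V, and it was -0.03 in the complex I assembly factors. Within complex V it was 0.20 in the stalk and 0.18 in the membrane subunits but -0.14 in the catalytic head, where B6 mouse 3 was the lowest array for 3 of 5 genes. Within complex I it was 0.17 in the accessory subunits and 0.05 in the catalytic core. Mitochondrial ribosomal proteins were at 0.05 on that array, which was the highest array for 29 of 71 of them (40.8%). B6 mice 2 and 3 were together the top arrays for 23 members (29.9%), against 13.9% of all genes.

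The same array had the highest erythroid and neutrophil summed levels of the 6 (63900 and 2670). The erythroid sums of Sle2 mice 1 and 3 were near it (59400 and 61900). The median deviation of the 67 subunits was 0.00 and -0.02 on these arrays, against 0.15 on B6 mouse 3. The part of such cells in the subunit shift was not tested. Without B6 mouse 3 the median difference went from -0.06 to 0.02 in complex I and from -0.01 to 0.04 in complex IV. It went from -0.10 to -0.01 in complex II, from 0.03 to 0.07 in complex III and from 0.11 to 0.07 in complex V. Under other processing, B6 mouse 3 was the highest array for 41 of 89 members with no filter (46.1%), for 35 of 73 with the strict filter (47.9%) and for 33 of 77 with arrays scaled to equal medians (42.9%). In the last of these, Sle2 mouse 3 was the highest for 24.

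**Figure D3:**
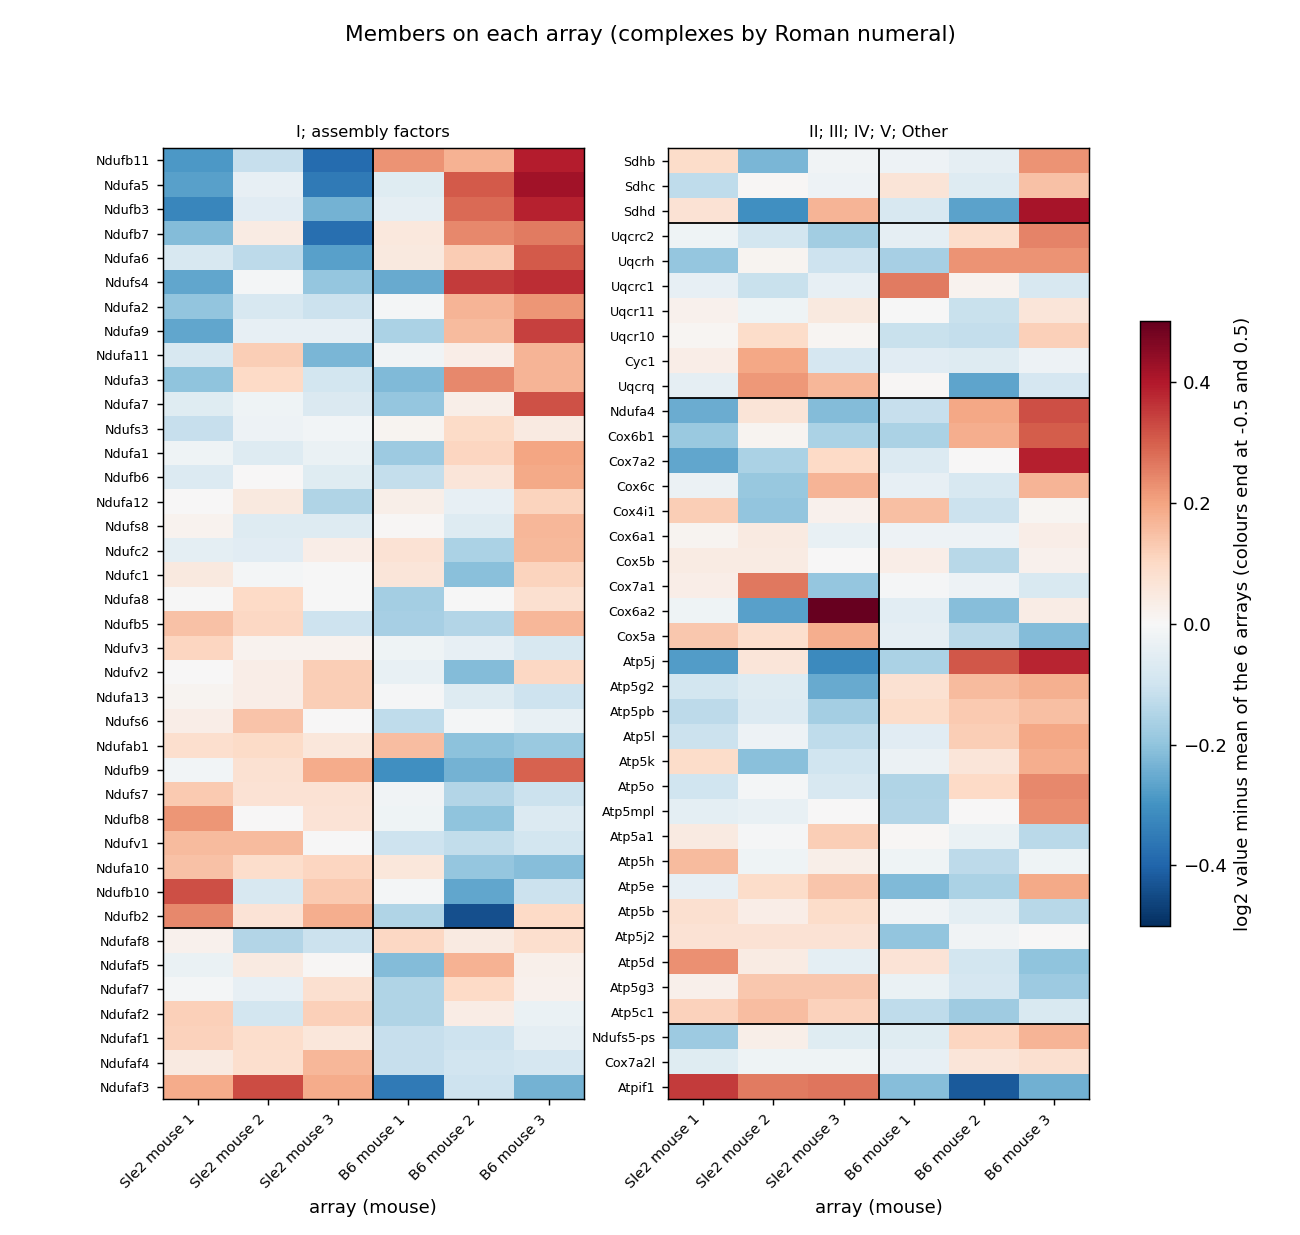
Heat map of the 77 tested members (rows) on the 6 arrays (columns), as the log2 value minus the gene's mean over the arrays, with red above and blue below that mean. The vertical line parts Sle2 from B6 and the horizontal lines part the complexes, and the column of B6 mouse 3 holds the highest value for 38 of the 77 members.

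**Figure D4:**
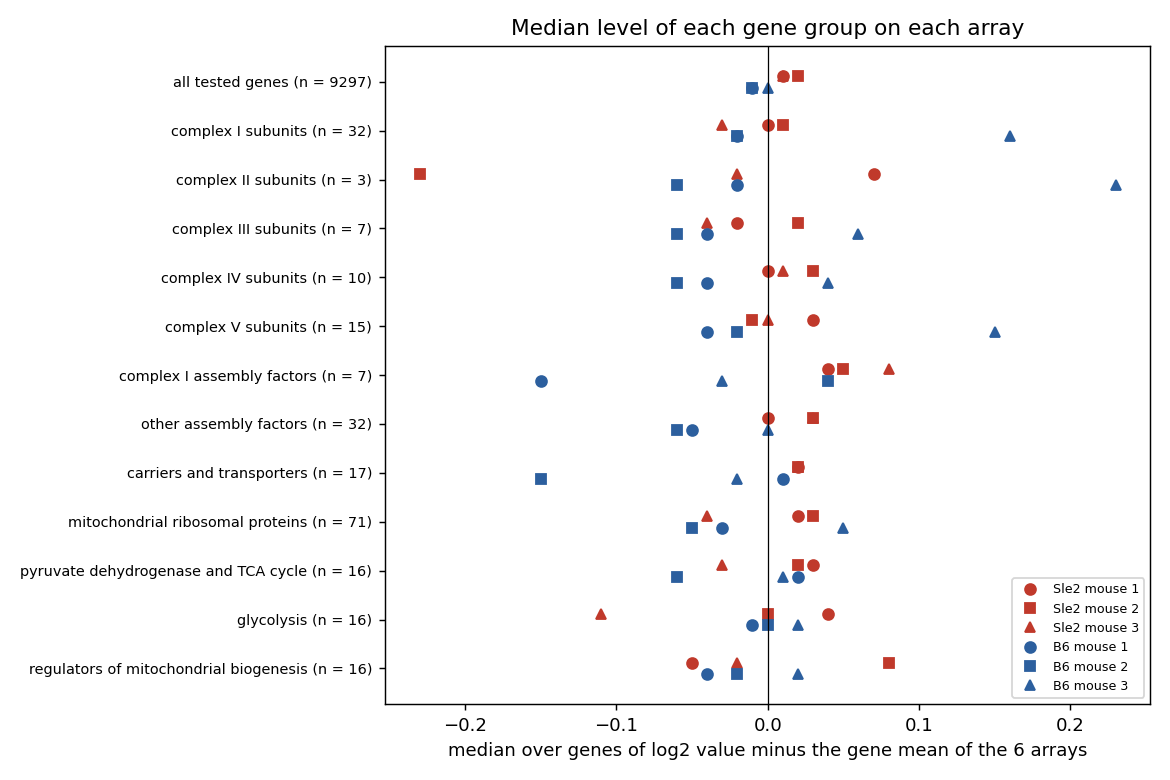
Median over the genes of each group of the log2 value minus the gene's mean over the 6 arrays, on the x axis, with 1 point per array, Sle2 in red and B6 in blue. B6 mouse 3 (blue triangle) lies at 0.16 for complex I, 0.23 for complex II and 0.15 for complex V, and at 0.00 for all tested genes.

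Lists of genes that work beside the respiratory chain are described by the same counts, against 1.04% of all tested genes called and 16.9% with an unadjusted p under 0.05. Of 32 tested assembly factors for complexes II to V and others outside the member list, 0 were called by limma (3 higher and 1 lower at an unadjusted p under 0.05), and their median was 0.03. Pet100, a complex IV assembly factor, had the largest difference there. It read 8.02, 8.21 and 8.09 in Sle2 and 8.30, 8.89 and 9.15 in B6, without overlap, a difference of -0.67 (SE 0.195, limma adjusted p = 0.15). It passed the test without B6 mouse 1, at -0.91 (adjusted p = 0.0191), and was at -0.49 without B6 mouse 3 (adjusted p = 0.309). Tmem70, a factor for ATP synthase, was at 0.37 (adjusted p = 0.171).

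The list of electron carriers and transporters had 17 tested genes, a median of 0.10 and 0 calls by limma (2 higher and 0 lower at an unadjusted p under 0.05). Its smallest p values belonged to ubiquinone synthesis genes, Coq5 at 0.34, Coq2 at 0.33 and Coq4 at 0.25, with limma adjusted p of 0.188, 0.254 and 0.337. Pyruvate dehydrogenase and the tricarboxylic acid cycle had 16 tested genes, a median of 0.01 and 0 calls (2 higher and 0 lower at an unadjusted p under 0.05). There Idh3a, a subunit of isocitrate dehydrogenase, was at 0.34 (adjusted p = 0.172).

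Glycolysis had 16 tested genes, a median of -0.03 and 0 calls by limma (2 higher and 2 lower at an unadjusted p under 0.05). The glucose transporters Slc2a3 and Slc2a1 were at 0.36 and 0.32, with no overlap between strains (limma adjusted p = 0.11 and 0.215), and hexokinase Hk1 was at -0.29 (adjusted p = 0.259). Slc2a3 passed the test with arrays scaled to equal medians (0.52, adjusted p = 0.035), with the series matrix values (0.37, adjusted p = 0.042) and with a trended prior (adjusted p = 0.0325), in a range of adjusted p up to 0.31. Of 71 tested mitochondrial ribosomal protein genes, 1 was called higher and 0 lower, with a median of -0.01. This was Mrpl3, at 0.54 (SE 0.0923, limma adjusted p = 0.0392), whose other kept probe was at -0.56 (adjusted p = 0.0721), so the mean of both was -0.01. Its call was lost when any 1 mouse was left out, with differences of 0.50 to 0.56 and adjusted p of 0.0511 to 0.159, and also with the mouse number as a block (adjusted p = 0.0672) and with the Xist covariate (adjusted p = 0.0634). The 13 mitochondrially encoded subunits had 0 named probes on this array.

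Among 16 tested regulators of mitochondrial biogenesis, 1 was called higher and 0 lower, and the median was 0.01. The called gene was Ppargc1a, a coactivator that raises transcription of respiratory chain genes in muscle and brown fat. It read 6.01, 6.09 and 6.13 in Sle2 and 5.56, 5.32 and 5.50 in B6. Every Sle2 mouse lay above every B6 mouse, with a difference of 0.61 (SE 0.102, limma adjusted p = 0.0363). The call was lost with the series matrix values (0.35, adjusted p = 0.0535), with dim probes left in (adjusted p = 0.0555), with the mouse number as a block (adjusted p = 0.0596) and with the Xist covariate (adjusted p = 0.0624). It was also lost when any mouse other than B6 mouse 1 was left out, over which the difference ran from 0.54 to 0.65. The adjusted p ran from 0.0205 to 0.143 over the alternatives in which the gene was tested, which leaves out the strict filter on dim probes. The median of the 67 subunits was -0.04.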

How the data were processed

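Total RNA of freshly isolated splenic B cells received a biotin label and was measured on Illumina mouse BeadChips, with a separate array for each mouse. The deposited table held linear bead intensities, exported by the authors with GenomeStudio per the submitters' processing notes, with no version. The values had not been background-subtracted or normalized, as read from the values themselves. The deposited table also held a detection p-value for each probe and array, per the file headers. Slide and scan are not given in the sources used here.

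The platform annotation gave a single symbol for 34885 of the 45281 probes, several for 18 and none for 10378. Symbols were updated through RefSeq (GRCm38.p6). Intensities were corrected with normexp, with the background inferred from the detection p-values and an offset of 16. They were then quantile-normalized and log2-transformed (neqc). The smallest detection p-value above 0 implies 936 negative controls, whose own intensities were not read. The detection filter (p-value under 0.05, at least 3 arrays) kept 17861 probes. Strains were compared with lmFit and eBayes (limma 3.58.1, R 4.3.3), two-sided, adjusted by Benjamini-Hochberg over all kept probes and called at an adjusted p under 0.05. The fit was tested on simulated data. It recovered 23 of 50 genes changed by 0.5 log2 units and 50 of 50 changed by 1, with 4 false calls. The simulated noise was independent between probes and arrays. It held no shift shared by many genes on 1 array, as seen on B6 mouse 3, so these counts may be too favourable. Precision is limited by the number of arrays, which have no read depth. The labels name separate mice.

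The members and lists were chosen with earlier results of these data known. Named genes were all called members, the 3 highest and 3 lowest of each complex, a fixed set of subunits and isoforms, members on chromosomes 4 and 9, members with probes of opposite sign, and called or else the 3 lowest-p genes of each pathway list. The other members named were chosen after their values were seen. The alternatives were other normalizations, filters, priors and array weights, the mean of all probes of a gene, a mouse-number block, an Xist covariate and each mouse left out. The count of members highest on B6 mouse 3 was chosen after seeing the data.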

Additional observations from a re-analysis of the deposited data

How the results depend on the processing

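All genes called went from 97 to 173 with no background correction (105 higher, 68 lower), 245 with arrays scaled to equal medians (219 higher, 26 lower, against 61 and 36), 187 with the series matrix values, 56 with no filter, 285 with a trended robust prior and 51 with the Xist covariate. Leaving out a mouse gave 28 (without Sle2 mouse 1) to 143 (without B6 mouse 1). The count of called members, 1 as analysed, was 2 with equal medians (Atpif1 and Ndufaf3, adjusted p = 0.0331), 2 with the trended prior (Atpif1 and Ndufb11), and 0 with no filter, with the mean of all probes and with the Xist covariate, and 0 to 1 when a mouse was left out. The cause was not tested.

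Equal medians moved the median of all genes from 0.02 to 0.14 and those of the members to 0.13, complex I to 0.11, complex II from -0.10 to 0.04, complex III to 0.20, complex IV to 0.13 and complex V to 0.20. Relative to that shift the members stayed near all genes. The mean of all probes moved the median of all genes to 0.01. Without 1 mouse the median ran from -0.06 to 0.02 in complex I, from -0.16 to -0.01 in complex II, from -0.01 (without B6 mouse 2) to 0.07 in complex III, from -0.06 to 0.04 in complex IV and from 0.05 (without B6 mouse 1) to 0.12 in complex V.

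Signs turned with equal medians for Cox4i1 (0.12), Cox7a2l (0.07), Ndufb6 (0.09), Sdhb (0.04), Sdhc (0.06), Sdhd (0.03) and Uqcrc1 (0.05), with array weights for Cox4i1 (0.01), and with the mean of all probes for Cox5b (-0.02), Cox6a1 (-0.08), Ndufs6 (-0.05), Ndufv3 (-0.05) and Mrpl3 (-0.01). Leaving out a mouse turned Cox4i1 (-0.10 to 0.06), Cox6a1 (0.00 to 0.04), Cox6a2 (-0.07 to 0.32), Cox7a1 (-0.05 to 0.18), Ndufa8 (0.00 to 0.12) and Sdhd (-0.19 to 0.15). None of these genes but Mrpl3 was called. Of the values of single genes, 840 kept direction and side of the threshold, 26 (of 3 genes) lost a call, 6 gained one (3 of them for Slc2a3, the others for Ndufaf3, Ndufb11 and Pet100) and 21 turned sign.

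Mice with the same number in both strains deviated together only weakly (r of 0.20, 0.13 and 0.04), so the numbers were not taken as pairs. With the replicate block 72 genes were called, 60 of them among the 97, and 0 members were (Atpif1 adjusted p = 0.0581).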
